A study of Danio rerio with 4 samples.

Results

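The crystallin genes, which code for the main proteins of the eye lens, were read from a table of counts of whole zebrafish (*Danio rerio*) embryos with and without exposure to SYP-3343, known here by that code alone. They were chosen by name: every gene model whose symbol begins with *crya*, *cryb* or *cryg*, in either case of letters, which gave 60 of the 28290 models of the table. The light-sensor cryptochromes and the quinone reductase *cryz* carry related names and were not taken. The 60 models carry 56 symbols, and *CRYAB*, *CRYBA2*, *CRYGN* and *CRYGS* each stand for 2 models, which are then given with their Ensembl identifier. By class there were 3 alpha, 7 acidic beta, 6 basic beta, 32 gamma M, 3 gamma MX, 2 gamma N and 4 gamma S genes, and 3 genes of the *crybg* name.

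Crystallins are the soluble proteins that fill the fibre cells of the lens and give it its refractive power. Alpha crystallins are small heat shock proteins that keep other proteins from clumping, while beta and gamma crystallins share a fold of their own and serve as structural proteins. Fish lenses are rich in gamma M crystallins, which are coded by a cluster of close copies. The *crybg1* genes code for larger proteins with the beta/gamma fold that are not known as lens proteins.

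The SYP-3343 group held 2 libraries from wild-type embryos exposed to 8 µg/L from 3 to 24 hours post-fertilization, and the control group held 2 libraries from untreated wild-type embryos. The design text speaks of 40 embryos without saying if this is per library. The labels call the libraries of a group biological replicates and do not name the clutches, so each p-value reflects the spread of these libraries, which may be technical. The series' title sets the question as harm to development by way of reactive oxygen species and mitochondria.

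Total counts were 49075203 and 49962016 in SYP-3343 replicates 1 and 2, and 46165614 and 59054470 in control replicates 1 and 2. Where a gene had 0 counts, up to 3 counts remain possible from counting error alone, equal to 0.0447 to 0.0699 CPM (counts scaled per 1e+06). CPM values here are divided by the library total and by edgeR's TMM factor (0.923 and 0.860 for SYP-3343 replicates 1 and 2, 1.11 and 1.138 for control replicates 1 and 2), and are not divided by gene length, so that they compare libraries and not genes. The 20 genes with the most counts took 14.5% and 15.3% of all counts in SYP-3343 and 10.1% and 10.2% in controls, and none of them was a crystallin. All 14 gene models matched to markers of other tissues (muscle, epidermis, hatching gland, blood, heart, neurons, and notochord or floor plate) were detected. *TNNT3* and *SHH* each stand for 2 of these models. Of the 14, 10 were higher in SYP-3343, with each *TNNT3* model among them, and 0 were lower (0 lower also at an unadjusted p under 0.05, by DESeq2 and by limma-voom). Among all tested genes 16.6% were higher and 15.3% lower. The higher models were led by the hatching enzyme genes *he1.2* (log2 fold change 2.15 ± 0.11) and *he1.1* (2.09 ± 0.14), the hatching gland protease *ctslb* (2.15 ± 0.20) and the keratin *cyt1* (1.38 ± 0.15).

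Among the crystallin genes that passed the test, more were lower in exposed embryos than higher, and 4 were lower by at least 2-fold, namely *crybgx*, *crygm2d11*, *crygm2f* and *crygm2b*. With edgeR's quasi-likelihood test and Benjamini-Hochberg adjustment over all 22647 genes tested, 47 of the 60 members could be tested, 13 were lower in SYP-3343, 3 were higher and 31 did not pass an adjusted p of 0.05. The 13 lower genes are 27.7% of the tested members, against 15.3% of all tested genes that were lower. Of the 13, 8 were close copies named *crygm2d*, among which the split of counts is uncertain, so they may not be separate measures. The 3 higher genes are 6.38%, against 16.6% of all tested genes that were higher. Falls of at least 2-fold were called in 3.29% of all tested genes. The median log2 fold change was -0.18 over the 47 tested members and -0.01 over all tested genes. Of the 47, 44 met the low-count filter in both groups and 3 (*crygm2b*, *crygm3* and *CRYBB2*) in the controls alone. A gene that entered the test through the controls alone could hardly be other than lower, and among the 44 genes that met the filter in both groups 12 were lower, 3 of them by at least 2-fold, and 3 higher, with a median of -0.16. Without control replicate 1 the members' median was -0.02, close to that of all tested genes (-0.01). It was -0.08 without SYP-3343 replicate 1 (all tested genes -0.02). Without control replicate 2 it was -0.33 (all tested genes -0.006), and without SYP-3343 replicate 2 it was -0.27 (-0.02).

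**Figure D1:**
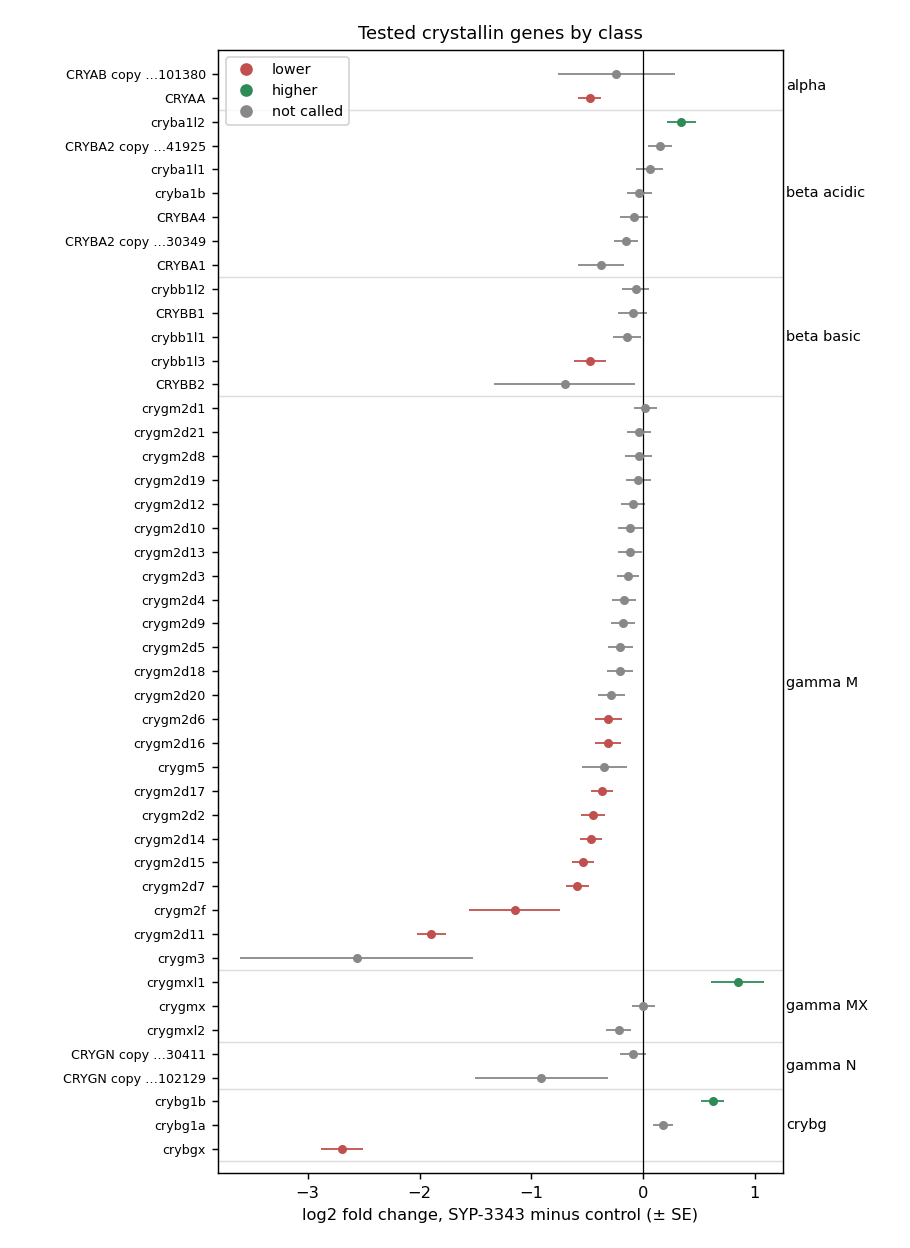
Log2 fold change, SYP-3343 minus control, with its standard error (x axis) for 46 of the 47 tested crystallin genes (y axis, grouped by class), with *crygm2b* left out because it had no counts in SYP-3343. *crybgx* (-2.69), the uncalled *crygm3* (-2.56) and *crygm2d11* (-1.89) lie farthest to the left and *crygmxl1* (0.85) farthest to the right.

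Crystallin genes differed in the same direction between the replicates of a group. All crystallin models together had a summed level of 11571 and 13604 CPM in SYP-3343 replicates 1 and 2, against 15007 and 12575 CPM in control replicates 1 and 2. The groups overlapped, since SYP-3343 replicate 2 lay above control replicate 2. The means were 12588 ± 1438 CPM in SYP-3343 and 13791 ± 1719 CPM in controls (SD, n = 2 each), a ratio of 0.913. Of the 47 tested members, 41 were higher in SYP-3343 replicate 2 than in replicate 1, against 49.6% of all tested genes, and 45 were higher in control replicate 1 than in replicate 2, against 52.4% of all tested genes. Among the tested members 13 had both SYP-3343 libraries below both controls, where 33.7% of all tested genes did, and 5 had both above, where 32.2% did. Where a lens crystallin gene was lower in whole embryos, fewer lens cells and less of its RNA per lens cell cannot be told apart.

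The distance of the family from controls moved with the scaling of the libraries. Crystallin models took 1.07% and 1.17% of all counts in SYP-3343 and 1.66% and 1.43% in controls, so that by plain share both exposed libraries lay below both controls. With library size alone as the scale, 39 members were lower and 0 higher, beside 41.4% of all tested genes lower and 6.2% higher. The median of the tested members was then -0.51, and that of all tested genes was -0.35 in place of -0.01. Less the median of all genes, the members' median was -0.16 on the log2 scale with each of TMM, RLE, upper-quartile and library-size scaling, which follows from the arithmetic, since new library factors shift all genes alike, and shows no stability. With TMM factors this difference ran from -0.32 without control replicate 2 to -0.01 without control replicate 1.

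**Figure D2:**
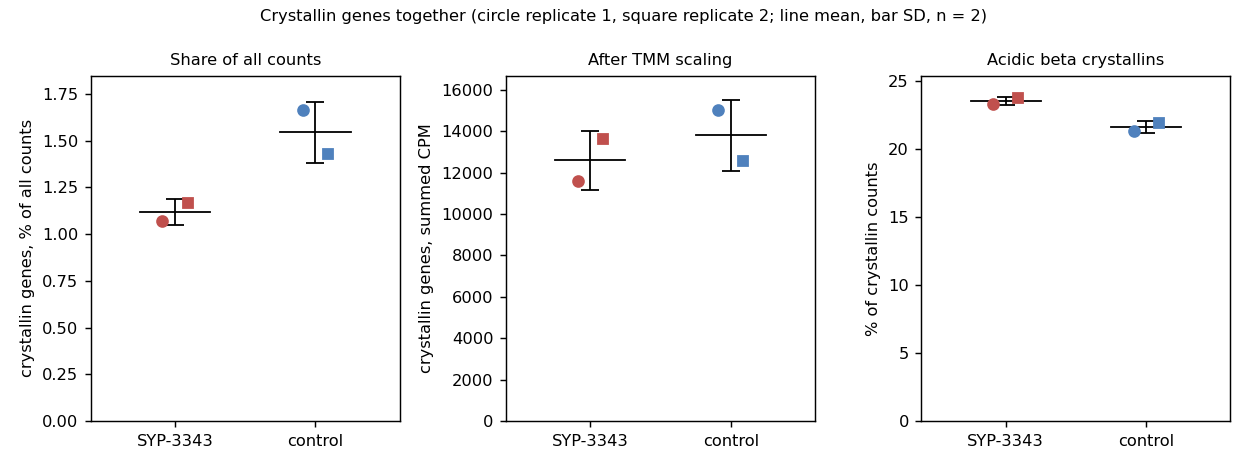
Left, crystallin models as a percentage of all counts; middle, their summed TMM-scaled CPM; right, acidic beta crystallins as a percentage of crystallin counts, each by library, with the group mean and SD (n = 2). SYP-3343 lies lower at the left (1.07% and 1.17% against 1.66% and 1.43%), the groups overlap in the middle, and SYP-3343 lies higher at the right (23.3% and 23.7% against 21.3% and 21.9%). The right panel shows a share within the family, and the summed TMM-scaled CPM of acidic beta crystallins overlapped between groups.

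Among the acidic beta crystallins, structural proteins that pair with basic beta crystallins in the lens, 0 of 7 tested genes were lower (also 0 at an unadjusted p under 0.05, by DESeq2 and by limma-voom), 1 was higher and 6 did not pass. With library size alone *cryba1l1* (-0.28), *CRYBA4* (-0.42), *cryba1b* (-0.37), *CRYBA1* (-0.71) and *CRYBA2* copy ENSDARG00000030349 (-0.48) passed as lower. Of all tested genes 41.4% were lower with that scaling, and 15.3% were lower and 16.6% higher with TMM factors. *cryba1l1* had 664 and 823 CPM in SYP-3343 against 771 and 655 CPM in controls (log2 fold change 0.06 ± 0.12). *CRYBA4* had 595 and 761 CPM in SYP-3343 against 778 and 657 CPM in controls (-0.08 ± 0.12), and *cryba1b* had 561 and 692 against 675 and 606 CPM (-0.03 ± 0.11). In all 3 genes the groups overlapped.

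Neither *CRYBA2* model passed the test, and a difference between them was not tested. *CRYBA2* copy ENSDARG00000041925 had 489 and 526 CPM in SYP-3343 against 487 and 426 CPM in controls, and both exposed libraries lay above both controls, though without passing the test (0.15 ± 0.10, edgeR adjusted p = 0.287). *CRYBA2* copy ENSDARG00000030349 had 372 and 409 CPM in SYP-3343 against 470.2 and 397 CPM in controls, which overlapped (-0.15 ± 0.11). The one gene of the class that was higher was *cryba1l2*, named after its values were seen, with 14.6 and 14.7 CPM in SYP-3343 against 12.9 and 10.4 CPM in controls (0.34 ± 0.13, edgeR adjusted p = 0.0464). Its call was kept in 6 of 13 alternative analyses. It ended with library size alone, upper-quartile factors, no low-count filter or DESeq2, and without either SYP-3343 library or control replicate 2, the adjusted p of the alternatives running from 0.0058 to 0.956.

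Of the basic beta crystallins, 1 of 5 tested genes was lower, 0 were higher (also 0 at an unadjusted p under 0.05, by DESeq2 and by limma-voom) and 4 did not pass. Beside this, 15.3% of all tested genes were lower and 16.6% higher. *crybb1l2* had 875 and 1039.9 CPM in SYP-3343 against 1085 and 919.9 CPM in controls (log2 fold change -0.07 ± 0.12). *CRYBB1* had 725 and 975 CPM in SYP-3343 against 969 and 842 CPM in controls (-0.09 ± 0.13), and *crybb1l1* had 386 and 534 against 534 and 484 CPM (-0.15 ± 0.12). With library size alone *crybb1l2* (-0.40), *CRYBB1* (-0.43) and *crybb1l1* (-0.49) passed as lower, beside 41.4% of all tested genes. With TMM factors all 3 overlapped between groups. The exception was *crybb1l3*, named after its values were seen, with 7.20 and 7.08 CPM in SYP-3343 against 10.1 and 9.78 CPM in controls, 1.39-fold lower with no overlap (-0.48 ± 0.14, edgeR adjusted p = 0.0135). That call ended on leaving out SYP-3343 replicate 1 (adjusted p = 0.0612) or replicate 2 (0.0709), the lowest value of its alternatives being 0.000424. *CRYBB2* had 8 and 14 counts in SYP-3343 against 29 and 19 in controls, and *CRYBB3* had 8 and 9 against 14 and 11 and was not tested.

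The gamma M crystallins, abundant structural proteins of the fish lens, held 10 of the 13 falls and 25 of the 47 tested members. Lower genes were 15.3% of all tested genes and higher genes 16.6%. Of their 32 genes 25 were tested, of which 10 were lower, 0 higher (also 0 at an unadjusted p under 0.05, by DESeq2 and by limma-voom) and 15 did not pass. Of the 23 that met the low-count filter in both groups 9 were lower. Within them, all 21 *crygm2d* copies were tested, with 8 lower and 13 not called. The copies summed to 5949.9 and 6711 CPM in SYP-3343 against 8002 and 6549.5 CPM in controls, so that as a group they overlapped (ratio of means 0.870). The sources used here do not say how reads that match several copies were counted, so the split of counts among these copies is uncertain.

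Of the copies with high counts, those named by rule had log2 fold changes from -0.20 to -0.04. The median over all 21 copies was -0.20. *crygm2d19* had 479.8 and 560.1 CPM in SYP-3343 against 589 and 481 CPM in controls (log2 fold change -0.04 ± 0.11). *crygm2d8* had 459 and 534 against 572 and 448 CPM (-0.04 ± 0.12), *crygm2d10* 441 and 509 against 553 and 474 CPM (-0.11 ± 0.11), *crygm2d21* 459 and 515 against 541 and 458 CPM (-0.04 ± 0.11), and *crygm2d5* 421 and 448 against 554 and 446 CPM (-0.20 ± 0.11), with SYP-3343 first in each pair. None of these 5 passed the test, and all overlapped between groups.

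*crygm2d11* stood apart from the other copies. It had 20.4 and 24.3 CPM in SYP-3343 against 96.7 and 69.6 CPM in controls, with no overlap, and was 3.72-fold lower (log2 fold change -1.89 ± 0.13, edgeR adjusted p = 3.25e-10). The call was kept in all 13 alternatives, at log2 fold changes from -2.23 to -1.64. The remaining lower copies, named after their values were seen, fell by 0.31 to 0.59 on the log2 scale.

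These were *crygm2d7* (-0.59 ± 0.10), *crygm2d15* (-0.54 ± 0.099), *crygm2d14* (-0.47 ± 0.096), *crygm2d2* (-0.44 ± 0.11), *crygm2d17* (-0.37 ± 0.10), *crygm2d16* (-0.31 ± 0.12) and *crygm2d6* (-0.31 ± 0.12). *crygm2d7* had 231 and 248 CPM in SYP-3343 against 394 and 327 CPM in controls, 1.502-fold lower with no overlap (edgeR adjusted p = 0.000164). *crygm2d7*, *crygm2d15* and *crygm2d14* kept their calls in all 13 alternatives. Without control replicate 1 the calls of *crygm2d2* (adjusted p = 0.11, lowest alternative 1.30e-05), *crygm2d17* (0.114, lowest 1.13e-05), *crygm2d16* (0.633, lowest 0.000193) and *crygm2d6* (0.653, lowest 0.000172) ended. Without SYP-3343 replicate 1 those of *crygm2d17* (0.0818), *crygm2d16* (0.254) and *crygm2d6* (0.299) ended. *crygm2d16* and *crygm2d6* also overlapped between groups, and missed the threshold with RLE factors (0.052 and 0.0561), no low-count filter (0.0817 and 0.0913), DESeq2 (0.0629 and 0.0778) and limma-voom (0.0561 and 0.0619).

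Both remaining falls of the gamma M class rest on few reads. *crygm2b* had 0 and 0 counts in SYP-3343 against 76 and 73 counts in controls, where it stood at 1.49 and 1.09 CPM (edgeR adjusted p = 1.36e-05). Taking 3 counts per library as the floor of SYP-3343, it was at least 18.9-fold lower. With *crygm2b* set to this bound the median of the tested members stayed at -0.18. *crygm2f* had 21 and 26 counts in SYP-3343 against 65 and 75 in controls, or 0.464 and 0.605 against 1.27 and 1.12 CPM, with no overlap (log2 fold change -1.15 ± 0.41, edgeR adjusted p = 0.0354). Its call ended with DESeq2 (adjusted p = 0.086) and without any one of the 4 libraries (0.0583 to 0.19), the lowest value of its alternatives being 0.00578. *crygm3*, with 0 and 4 counts against 20 and 13, did not pass (edgeR adjusted p = 0.0649, 0.0272 with limma-voom).

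**Figure D3:**
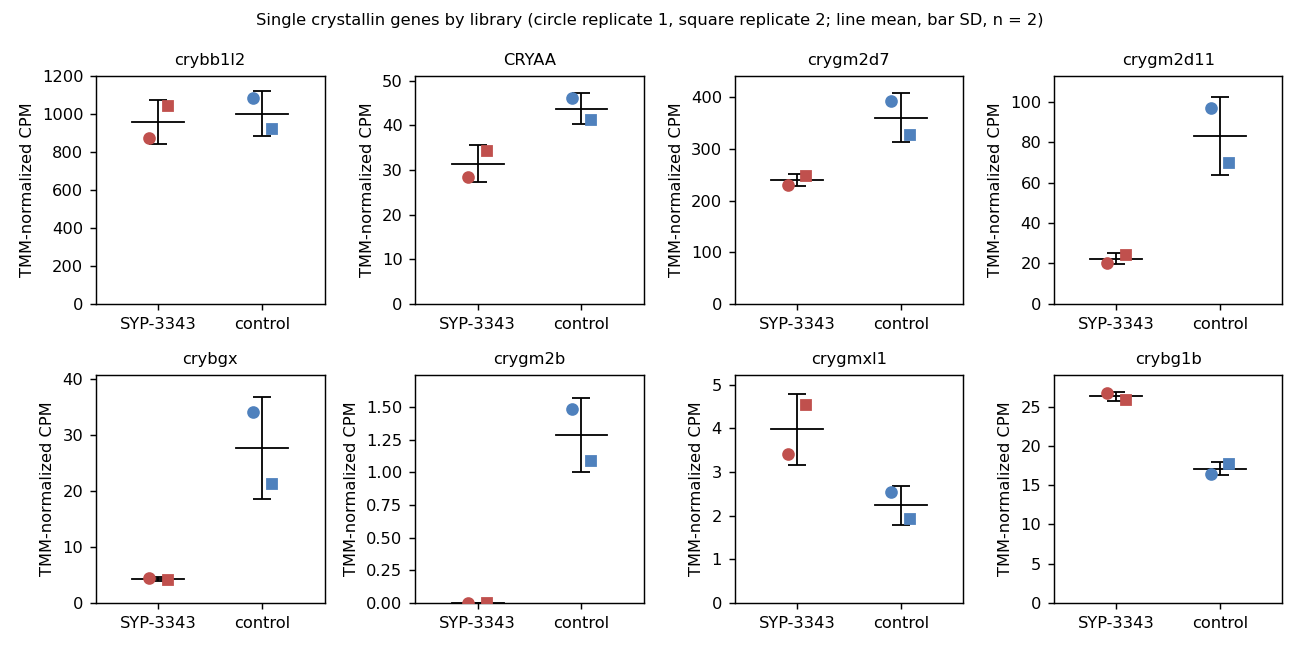
TMM-normalized CPM of 8 crystallin genes by library, SYP-3343 left of control, with the group mean and SD (n = 2). The groups overlap for *crybb1l2*; SYP-3343 lies lower for *CRYAA*, *crygm2d7*, *crygm2d11*, *crybgx* and *crygm2b* (0 counts), and higher for *crygmxl1* and *crybg1b*.

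Of the 3 gamma MX genes 1 passed the test, and of the 2 gamma N genes 0 did (0 also at an unadjusted p under 0.05, by DESeq2 and by limma-voom). Among all tested genes 31.9% passed, lower or higher. *crygmxl1* was higher, with 3.40 and 4.54 CPM in SYP-3343 against 2.54 and 1.92 CPM in controls, 1.80-fold with no overlap (log2 fold change 0.85 ± 0.24, edgeR adjusted p = 0.00932). Library size alone ended its call, as did leaving out SYP-3343 replicate 2 (adjusted p = 0.131) or control replicate 2 (0.0816), with 0.00248 the lowest value of its alternatives. *crygmx* (0.00 ± 0.10) and *crygmxl2* (-0.22 ± 0.11) did not pass. Upper-quartile factors made *crygmxl2* pass as lower (-0.29, edgeR adjusted p = 0.047), and library size alone made both do so (-0.33 and -0.55). *CRYGN* copy ENSDARG00000030411 had 459 and 569 CPM in SYP-3343 against 598 and 497 CPM in controls (-0.09 ± 0.12), which overlapped. With library size alone this copy passed as lower (-0.43). *CRYGN* copy ENSDARG00000102129 had 10 and 13 counts against 34 and 24 and did not pass (-0.91 ± 0.59).

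Of the alpha crystallins, *CRYAA*, the chaperone of the lens, was lower. It had 28.4 and 34.3 CPM in SYP-3343 against 46.1 and 41.2 CPM in controls, 1.39-fold lower with no overlap (log2 fold change -0.48 ± 0.11, edgeR adjusted p = 0.00144), and kept its call in all 13 alternatives. *CRYAB* copy ENSDARG00000101380 had 15 and 23 counts in SYP-3343 against 34 and 26 in controls (-0.24 ± 0.53), and *CRYAB* copy ENSDARG00000042621 was at 0 in all 4 libraries. Small heat shock protein genes, relatives of the alpha crystallins, were not called more often in one direction: 2 of 9 tested genes were lower, 2 higher and 5 did not pass, where 15.3% of all tested genes were lower and 16.6% higher. *hspb9* was higher (1.144 ± 0.16), as was *hspb6* (0.41 ± 0.15), while *HSPB7* (-0.77 ± 0.17) and *HSPB1* (-0.34 ± 0.11) were lower. The call of *hspb6* was kept in 8 of 13 alternatives and ended without SYP-3343 replicate 1 or control replicate 2, and that of *HSPB1* ended without SYP-3343 replicate 1 or control replicate 1. *hspb9* and *HSPB7* kept their calls in all 13.

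The 3 genes of the *crybg* name did not move together. *crybgx*, whose role is left unstated here, had 4.46 and 4.05 CPM in SYP-3343 against 34.2 and 21.3 CPM in controls, 6.46-fold lower with no overlap (log2 fold change -2.69 ± 0.19, edgeR adjusted p = 4.23e-10), and kept its call in all 13 alternatives. *crybg1b* was higher, with 26.7 and 25.9 CPM in SYP-3343 against 16.5 and 17.6 CPM in controls (0.62 ± 0.11, edgeR adjusted p = 9.94e-05). With library size alone that call ended (0.29, edgeR adjusted p = 0.0555). *crybg1a* had 71.4 and 66.2 CPM in SYP-3343 against 59.3 and 62.1 CPM in controls, with no overlap but without passing the test (0.18 ± 0.091, edgeR adjusted p = 0.138). Without these 3 genes, 12 of 44 tested crystallin genes were lower and 2 higher, with a median of -0.19. Of all tested genes 15.3% were lower and 16.6% higher, with a median of -0.01. These 44 are not the 44 that met the low-count filter in both groups. They include *crygm2b*, *crygm3* and *CRYBB2*, which met it in controls alone.

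Members with few or no reads complete the family. Of the 13 that could not be tested, 9 had 1 or more counts and 4 were at 0 in all 4 libraries, namely *crygm1*, *crygm2a*, *crygm6* and the *CRYAB* copy named above. None of the 4 gamma S genes was tested, and together they had 8 and 7 counts in SYP-3343 against 18 and 7 in controls. *crygm7* had 2 counts, in SYP-3343 replicate 1.

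The make-up of the crystallin counts does not depend on library scaling. Acidic beta crystallins took 23.3% and 23.7% of crystallin counts in SYP-3343 against 21.3% and 21.9% in controls, with no overlap, and gamma M crystallins took 51.5% and 49.4% against 53.4% and 52.1%, also with no overlap. Shares within the family depend on each other, so a higher share need not mean a higher level. By summed TMM-scaled CPM each of these classes overlapped between groups. Acidic beta crystallins had 2700.5 and 3230 CPM in SYP-3343 against 3201 and 2757 CPM in controls. Gamma M crystallins had 5956 and 6716 against 8011 and 6557 CPM. Basic beta crystallins took 17.2% and 18.8% in SYP-3343 against 17.3% and 17.9% in controls, and overlapped. For single genes, *crygm2d11* took 0.176% and 0.179% of crystallin counts in SYP-3343 against 0.644% and 0.554% in controls, and *CRYAA* took 0.246% and 0.252% against 0.308% and 0.328%. *cryba1l1* took 5.74% and 6.05% in SYP-3343 against 5.14% and 5.21% in controls. In all, 18 of 47 tested members had a lower share of crystallin counts in both SYP-3343 libraries than in both controls, 12 had a higher one and 17 overlapped. No such count of shares was made for other genes. By TMM-scaled CPM, 33.7% of all tested genes had both SYP-3343 libraries below both controls and 32.2% had both above, so separation of this kind was common.

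Members that neighbour each other on the chromosomes were compared through RefSeq's gene order (assembly GRCz12tu, used for neighbours alone because the counts rest on GRCz11), in which 52 of the 60 members were found. Neighbours here are members that follow each other in that order, and genes outside the family may lie between them. A run of 34 members holds the 21 *crygm2d* copies, 10 other gamma M genes, *crygmxl1* and 2 gamma S genes. Along it, *crygm2d11* (-1.89) stood between *crygm2d13* (-0.11 ± 0.11), which did not pass, and *crygm2d15* (-0.54), which fell. Of the 8 lower copies 6 lay from *crygm2d11* to *crygm2d6*, with the uncalled *crygm2d18* and *crygm2d8* among them. The ends of this stretch were set by the calls themselves, and a grouping of lower copies along the run was not tested. The split of counts among the copies is uncertain. *crygm2d16* and *crygm2d6* overlapped between groups and lost their calls with RLE factors, DESeq2 or limma-voom. *crygm2d14*, *crygm2d16* and *crygm2d6* followed one another in the order of members, and *crygm2d7* and *crygm2d2* lay farther along.

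**Figure D4:**
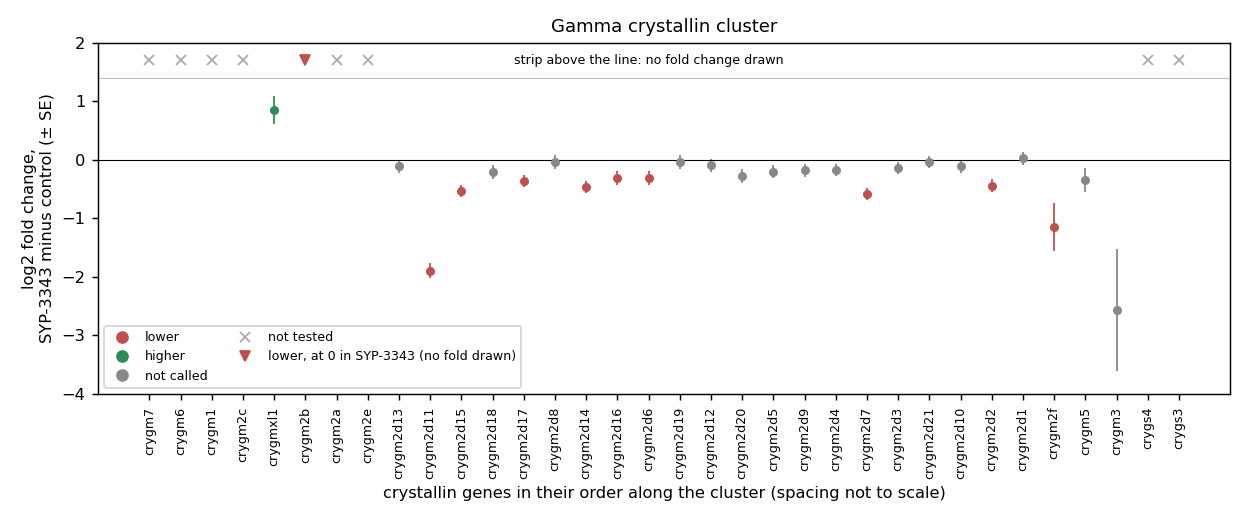
Log2 fold change, SYP-3343 minus control, with its standard error (y axis) for the crystallin genes of the gamma cluster in their order along it (x axis, spacing not to scale); genes that were not tested, and *crygm2b* with 0 counts in SYP-3343, stand in the strip at the top. *crygm2d11* (-1.89) lies far below its neighbours *crygm2d13* and *crygm2d15*, and *crygmxl1* (0.85) lies above 0.

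An acidic and a basic beta gene are neighbours in the order of members in 4 places. Genes outside the family may lie between them, save where they overlap. The neighbour of *cryba1l2* (0.34) was *crybb1l2* (-0.07), that of *CRYBA4* (-0.08) was *CRYBB1* (-0.09), and that of *cryba1l1* (0.06) was *crybb1l1* (-0.15). *CRYBA1* (-0.38 ± 0.20, edgeR adjusted p = 0.17) and *crybb1l3* (-0.48) overlap in that assembly, as do *crygm3* and *crygs4*, so reads of either pair may not be fully told apart.

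Other genes of the lens did not follow one direction. Of 19 genes of lens fibres and their membranes, all tested, 4 were lower, 6 higher and 9 did not pass, with a median log2 fold change of 0.09. Beside them, 15.3% of all tested genes were lower and 16.6% higher. Membrane protein genes of the fibre cell were among the higher ones: *lim2.3* had 60.2 and 68.8 CPM in SYP-3343 against 40.3 and 38.9 CPM in controls (0.70 ± 0.096, edgeR adjusted p = 7.54e-06), and *lim2.1* had 27.3 and 32.5 against 23.4 and 21.5 CPM (0.42 ± 0.11, adjusted p = 0.00545). The ephrin receptor gene *epha2a* (1.03 ± 0.093) and *caprin2* (1.13 ± 0.27), an RNA-binding protein gene, were higher too, and both are also expressed outside the lens. *epha2a* and *lim2.3* kept their calls in all 13 alternatives. That of *lim2.1* ended with library size alone (0.08, adjusted p = 0.586, lowest alternative 0.00109) and without SYP-3343 replicate 2 (0.146), and that of *caprin2* without SYP-3343 replicate 1 (0.0865, lowest alternative 0.000213).

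The water channel gene *MIP*, named after its values were seen as were the next genes, had 2 copies, of which ENSDARG00000037285 had 129 and 151 CPM in SYP-3343 against 120.2 and 111 CPM in controls (0.28 ± 0.097, edgeR adjusted p = 0.0329) and ENSDARG00000013963 did not pass (0.23 ± 0.10, adjusted p = 0.0792). The call of the first copy was kept in 8 of 13 alternatives. It ended without SYP-3343 replicate 2 or control replicate 2, with upper-quartile factors and with no low-count filter, and its direction turned with library size alone (-0.058, adjusted p = 0.622, lowest alternative 0.00853). *BFSP2*, a gene of the beaded filament of lens fibres, had 107.2 and 108 CPM in SYP-3343 against 122 and 107.2 CPM in controls and did not pass (-0.09 ± 0.092). The lower genes were the lens galectin-related gene *GRIFIN* (-0.40 ± 0.14), the lengsin gene *LGSN* (-0.39 ± 0.12), *BIRC7* (-0.48 ± 0.14) and the gap junction gene *GJA3* (-0.54 ± 0.20). Each of these 4 calls ended on leaving out single libraries: *BIRC7* without SYP-3343 replicate 2 or control replicate 1, *LGSN* without SYP-3343 replicate 1 or control replicate 1, *GRIFIN* without any but control replicate 2, and *GJA3* without any but control replicate 1.

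**Figure D5:**
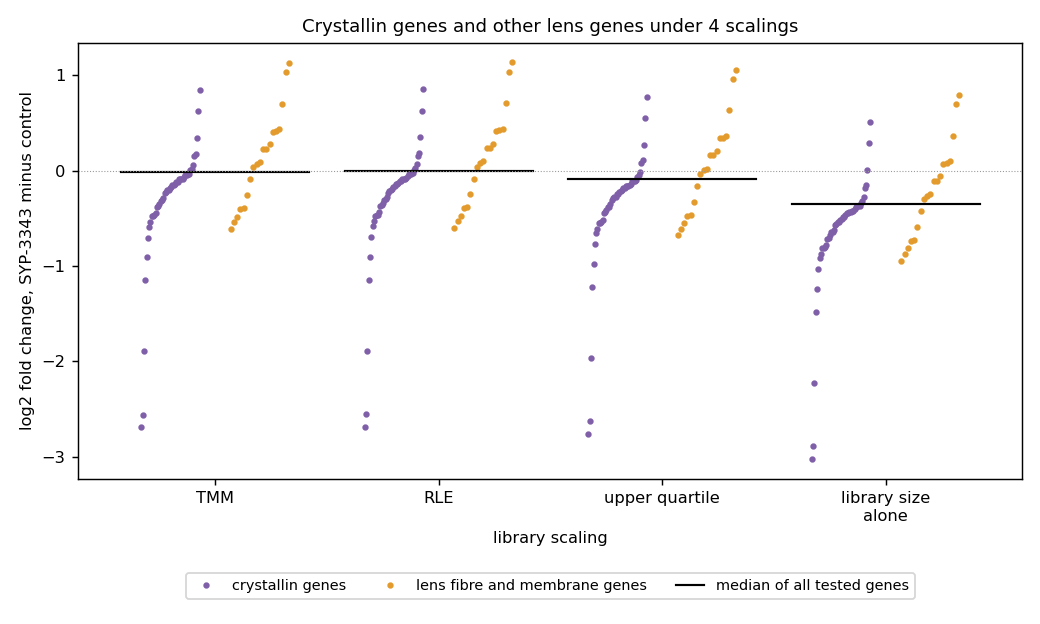
Log2 fold change, SYP-3343 minus control (y axis), of 46 crystallin genes and 19 lens fibre and membrane genes under 4 scalings of the libraries (x axis), with the median of all tested genes as a line; *crygm2b* is left out. The crystallin points lie mostly at or below the line under each scaling (their median is -0.18 with TMM and -0.51 with library size alone), while the other lens genes spread to both sides.

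Of 14 tested regulators of the lens, transcription factor genes that act on crystallin promoters or earlier in the placode, 3 were lower, 0 higher (also 0 at an unadjusted p under 0.05, by DESeq2 and by limma-voom) and 11 did not pass. With library size alone 12 were lower. *MAF* copy ENSDARG00000015890, of the Maf family that binds crystallin promoters, had 11.8 and 12.0 CPM in SYP-3343 against 18.7 and 16.5 CPM in controls (log2 fold change -0.56 ± 0.12, edgeR adjusted p = 0.0011). *MAF* copy ENSDARG00000076520 was lower as well (-0.66 ± 0.18, adjusted p = 0.00803, though 0.0777 without SYP-3343 replicate 1, lowest alternative 0.000407), as was *TFAP2A* (-0.36 ± 0.091, adjusted p = 0.00424), which is also expressed in epidermis and neural crest. With TMM factors *HSF4* (-0.31 ± 0.14) did not pass, nor did *pitx3* (-0.09 ± 0.11) and *foxe3* (0.13 ± 0.29), named outside the rule as known lens genes. With library size alone *foxe3* turned to -0.21 and *PAX6* copy ENSDARG00000103379 to -0.26 from 0.08.

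Neighbouring tissues of the eye were described from lists of their genes, to be read beside the 15.3% of all tested genes that were lower and the 16.6% higher. Of 18 tested early retina genes 7 were lower, 3 higher and 8 did not pass (summed level 389 and 396 CPM in SYP-3343 against 502 and 463 CPM in controls), with *crx* (-0.77 ± 0.093), *VSX1* (-0.52 ± 0.096) and *rx2* (-0.82 ± 0.20) lower and *atoh7* (1.02 ± 0.13) higher. Of 15 genes of pigment epithelium and melanin synthesis, which other pigment cells share, 8 were higher, 1 lower and 6 did not pass (990.5 and 1277 CPM in SYP-3343 against 707 and 677 CPM in controls), led by *OCA2* (1.88 ± 0.13), *TYRP1* copy ENSDARG00000029204 (1.30 ± 0.14), *SLC45A2* (1.01 ± 0.12) and *SLC24A5* (1.23 ± 0.16). Of 9 placode genes, 0 were lower and 0 higher by edgeR's test with TMM factors, by DESeq2 or by limma-voom, and 1 was lower and 1 higher at an unadjusted p under 0.05 (205 and 212 CPM in SYP-3343 against 221 and 209 CPM in controls). *foxi1* (0.65 ± 0.25, edgeR adjusted p = 0.0562) passed with the replicate block (0.0474), with a filter at 1 CPM (0.0446) and without SYP-3343 replicate 1 or control replicate 1. *pitx1* (-0.26 ± 0.12, edgeR adjusted p = 0.113) passed with upper-quartile factors (0.043), with library size alone and without control replicate 2. The part of these tissues in the crystallin values was not tested.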

How the data were processed

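The deposited table holds the authors' raw counts of reads per gene model, whole numbers without normalization, in 4 columns that were all used. Per the labels, poly-T selected RNA was used for NEBNext Ultra libraries. The submitters' processing notes name DESeq2 1.14.1, featureCounts 1.6.2, HTSeq, HISAT2 and TopHat2, with the build GRCz11 and no roles. The sources used here do not give the annotation, the strand setting or the treatment of reads with several matches.

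The fit ran over the whole table: edgeR 4.0.16 in R 4.3.3, filterByExpr with its defaults (minimum count 10), TMM factors and the two-sided quasi-likelihood test, group alone as term, with an adjusted p under 0.05 as the threshold. Log2 fold changes are given ± SE, the SE being the fold change divided by the root of the F statistic, with n = 2 per group. Alternatives used limma 3.58.1 and DESeq2 1.42.0 beside other factors, filters, a block and left-out libraries, 13 in all. Where a left-out library leaves 1 in its group, that one was taken to vary as much as the other group does. The edgeR fit was first tested on simulated counts, and the other statistics were not. A share of counts or a sum over members was given no p, since 2 libraries against 2 cannot go below 0.333.

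Replicates differed by more than sampling noise (chi-square per gene 12.5 in SYP-3343 and 14 in controls). The 97 list symbols were matched by symbol, or without their copy letter or number, and 3 were not found: 1 small heat shock gene and 2 tissue markers. By rule, values per library were given for the 14 tested members with the highest mean CPM and the 6 others with the largest called change. Members of classes of 5 or fewer genes could be named too. Of these, *crygmx* and *crygmxl2* were given by fold change alone and the gamma S genes by their sum. *cryba1l2*, *crybb1l3*, *crygm2d7* and members with few counts (*CRYBB2*, *CRYBB3*, *crygm3*, *crygm7*) were added after their values were seen, and up to 4 genes were named for each list by smallest adjusted p. Some genes of the lists are not reported here. The members and lists were chosen with earlier results of these data known.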

Additional observations from a re-analysis of the deposited data

How the results depend on the processing

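Of the 16 crystallin calls, 7 lower ones and 0 higher ones kept their side of the threshold in all 13 alternatives. These counts do not compare the stability of the 2 directions. Library size alone moved the median of all tested genes to -0.35, so it could hardly end a lower call. It ended all 3 higher calls, and for *crybg1b* it was the only alternative to do so. Among the 7 was *crygm2b*, which met the low-count filter in controls alone. With library size alone 39 crystallin genes were lower and 0 higher, their median was -0.51, the log2 ratio of summed CPM was -0.47, 9384 genes were lower and 1405 higher in the whole table, and 38 genes of the 6 comparison lists were lower and 13 higher. Of all genes called in either direction, 13% were higher with that factor-free scaling, 40.5% with upper-quartile factors and 52.2% with TMM. The factor-free scaling also turned *cryba1l1* (-0.28), *crygm2d1* (-0.31), *crygmx* (-0.33), *PAX6* copy ENSDARG00000103379 (-0.26) and *MIP* copy ENSDARG00000037285 (-0.058) to below 0. Leaving out each library gave 8 to 18 lower and 1 to 3 higher crystallin genes, a median of -0.33 to -0.02, a log2 ratio of summed CPM of -0.26 to 0.00, 2483 to 3115 lower and 2873 to 3611 higher genes, and 11 to 18 lower and 15 to 22 higher list genes. A further 34 changes of sign, of 18 members, were called in neither analysis, 28 of them on leaving out a library. The fold changes with library size alone follow from the arithmetic, since new library factors shift all genes alike. The cause of the other shifts was not tested. With the replicate number as a block, 13 crystallin genes were lower and 3 higher, and no crystallin call changed, while the placode gene *foxi1* passed with the block (0.65, adjusted p = 0.0474) and not without it. Same-numbered libraries deviated with a correlation of -0.0366 across genes, and the labels do not say that numbers pair. The low counts of the members at or under the floor limit what could be tested among them.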
